A study of Mus musculus with 29 samples.

Results

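A set of 10 genes of creatine, calcium and glycerol cycling was followed through brown adipose tissue (BAT) and gastrocnemius muscle (SkM). They are Gatm, Gamt, Slc6a8, Ckb, Ckmt1, Ckmt2, Alpl, Sln, Gk and Gpd2, picked by symbol from a table of 24770 rows, and all 10 were found. The mice were wild-type C57BL/6J males, 8 weeks old when the 8 weeks of intervention began. Control mice were sedentary and ate chow ad libitum, CR mice had their food lowered stepwise to 70% of ad libitum intake, EX mice ate ad libitum and ran on a treadmill at 12 m/min, and CREX mice received both. Tissue was taken after 6 h of fasting and, for trained mice, 24 h after the last run. RNA-seq libraries came from 3 control, 4 CR, 4 EX and 4 CREX mice for BAT and from 4 control, 3 CR, 4 EX and 3 CREX mice for SkM. Libraries of BAT and SkM with the same number are not tied to one mouse by the labels.

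Energy can be spent as heat when a reaction and its reversal run side by side. In creatine cycling, mitochondrial creatine is phosphorylated by creatine kinase and the phosphocreatine is hydrolysed again by a phosphatase, and in calcium cycling the sarcoplasmic reticulum pump consumes ATP while sarcolipin lets it move less calcium. Both have been described beside uncoupling by UCP1 in fat and muscle, and glycerol made by lipolysis can be re-used through glycerol kinase.

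Depth was similar throughout, with 21026766 to 24895419 counts per library in BAT and 23039018 to 23412230 in SkM. By these totals 3 counts stand for 0.121 to 0.143 CPM (counts on a common library scale) in BAT libraries. In SkM libraries they stand for 0.128 to 0.130 CPM. Both ranges hold counting error only. The CPM below also carry a scaling factor per library, which shifts these values. In SkM CR replicate 3, for instance, 3 counts of Ckmt1 were 0.115 CPM. The labelled tissues carried their markers: the 6 brown adipocyte markers reached a summed level of 2891 to 6628 CPM in BAT against 5.22 to 10.6 CPM in SkM, and the 11 muscle fibre markers summed to at least 98984 CPM in SkM. In BAT those muscle markers ran from 3.01 to 5389 CPM within the 15 libraries. In SkM the slow fibre score, the mean log2(CPM + 1) of 7 slow fibre markers, was 7.74 to 7.80 in CR and 7.11 to 7.83 in control, but 6.17, 3.34 and 1.98 in the 3 CREX libraries and 4.80 in EX replicate 1.

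In control mice the members differed in level between the tissues. Of the 9 tested members 8 were called, where 60.0% of all tested genes were called (edgeR quasi-likelihood test, adjusted p under 0.05 and fold change above 1.5). Ckb, the cytosolic brain-type creatine kinase, was 3.23-fold higher in BAT (15.9 ± 1.26 CPM, n = 3, against 4.07 ± 0.268 CPM, n = 4, SD, edgeR adjusted p = 4.23e-08). The CPM are scaled within each tissue and the fold changes over both tissues. Gk, the glycerol kinase, was 46.3-fold higher in BAT (edgeR adjusted p = 2.42e-11), and Gpd2, the mitochondrial glycerol-3-phosphate dehydrogenase, was 5.15-fold higher (edgeR adjusted p = 5.72e-09).

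Gatm and Gamt, which make creatine in 2 steps, were 3.61-fold and 3.04-fold lower in BAT, and Slc6a8, the creatine transporter, was 6.52-fold lower (edgeR adjusted p = 8.0e-05, 5.7e-06 and 2.7e-09). Ckmt2, the sarcomeric mitochondrial creatine kinase, averaged 1589 ± 147 CPM in SkM and 2.12 ± 3.11 CPM in BAT (SD). Sln, which encodes sarcolipin, held 0, 2 or 3 counts in each BAT control library and 28 to 54 counts in SkM. Both were called lower in BAT. Alpl, the tissue-nonspecific alkaline phosphatase, did not pass the test (log2 difference -0.34, standard error 0.16, edgeR adjusted p = 0.0684). Without BAT control replicate 2 it was called lower in BAT (log2 difference -0.59, adjusted p = 0.00110). Ckmt1, the ubiquitous mitochondrial creatine kinase, held 3 counts or fewer in every library of both tissues and was left out by the filter on low counts.

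Set per kilobase of exon, which makes levels comparable between genes, Gpd2 was the highest member in BAT of control mice at 102 CPM per kb, followed by Gk at 13.4 and Ckb at 5.49. Over all 15 BAT libraries Ckmt2 averaged 12.3 CPM per kb and Gk 11.9, and Ckmt2 spread from 0 to 99.5 CPM between them. In SkM of control mice Ckmt2 stood at 1069.6 CPM per kb, followed by Slc6a8 at 21.8 and Gpd2 at 16.3. Gpd2 shares 487 of its 6549 exon bases with a gene on the opposite strand and the library type is not stated in the sources used here, so a part of its reads cannot be told apart from that gene's. Ckmt2 shares 84 of 1486 bases and Gk 84 of 7743 bases in the same way.

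**Figure D1:**
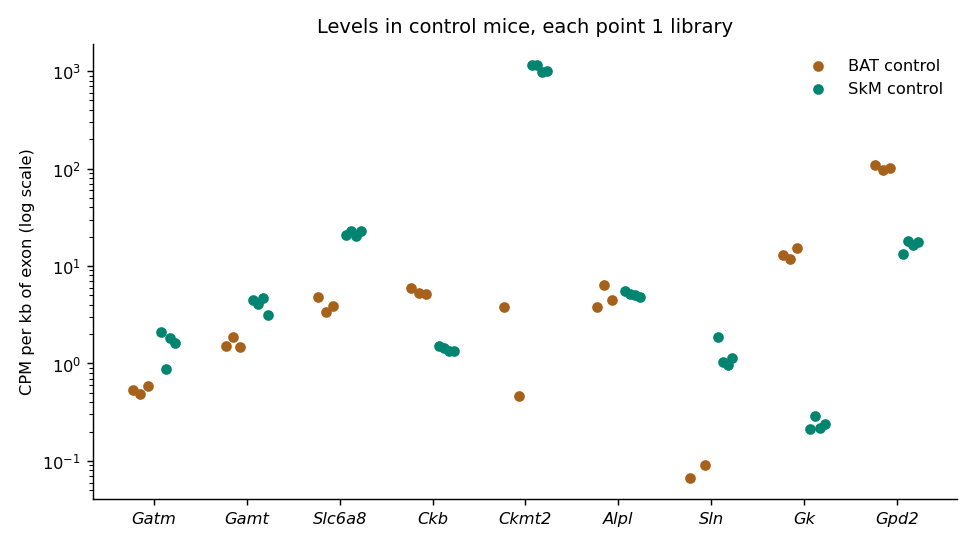
Level of each member in control mice in CPM per kb of exon on a log scale, each point 1 library (3 BAT, 4 SkM, values of 0 not drawn, CPM scaled within a tissue). Gk, Gpd2 and Ckb lie higher in BAT, and Ckmt2, Slc6a8, Gatm, Gamt and Sln lie higher in SkM, while the Alpl points of the tissues lie close together.

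In BAT, Alpl fell with calorie restriction at either level of training. It lies on chromosome 4 from 137741733 to 137796384 on the minus strand (GRCm38). The control libraries held 15.2, 25.8 and 18.1 CPM and the CR libraries 7.56, 8.09, 9.12 and 9.08 CPM. The EX libraries held 16.6, 21.9, 20.7 and 16.7 CPM and the CREX libraries 9.27, 7.55, 7.77 and 9.05 CPM. Every library of restricted mice was below every library of mice fed ad libitum. CR against control gave a log2 fold change of -1.23 ± 0.17 (standard error) with an edgeR adjusted p of 0.00138, and CREX against EX gave -1.18 ± 0.12 with an adjusted p of 0.00108. Over all 4 groups the main effect of CR was -1.20 (standard error 0.11, edgeR adjusted p = 1.87e-06), a 2.30-fold decrease. Alpl stayed called with each library left out in turn (main effect between -1.28 and -1.08).

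Alpl was the only one of 8 tested members called between CR and control, where 10.6% of all genes were called, and the only one of 9 between CREX and EX, where 4.47% were called. In whole tissue, fewer cells of a type and less RNA per cell cannot be told apart. Endothelial markers, 6 genes, summed to 353 to 400 CPM in control and 254 to 324 CPM in CR, and to 292 to 362 CPM in EX and 261 to 309 CPM in CREX. With the endothelial score as a covariate, an alternative chosen after seeing the data, Alpl was still called, with -1.54 for CR and -1.19 for CREX. The score was 5.22 to 5.61 in CR and 5.62 to 5.82 in control. Because it separated these libraries, the CR fit cannot tell the score from CR. In EX and CREX the scores overlapped, at 5.36 to 5.69 and 5.29 to 5.51. The 5 fibroblast markers summed to 163 to 197 CPM in control and 116 to 151 CPM in CR, and the 4 smooth muscle markers to 59.5 to 67.9 CPM and 42.2 to 51.9 CPM. The 6 brown adipocyte markers summed to 5588 to 6628 CPM in control and 3614 to 4347 CPM in CR, and to 4939 to 5815 CPM in EX and 2891 to 4112 CPM in CREX, without overlap in either comparison. The 6 macrophage markers were lower in CR than in control as well, with their ranges given beside Gatm. Of the 6 brown adipocyte markers 4 were called lower and 1 higher in the main effect of CR, where 11.8% of all genes were called. The 5 general adipocyte markers overlapped, at 9719 to 10611 CPM in control and 10349 to 11255 CPM in CR. In the main effect 0 of these 5 were called, and 1 was called lower between CR and control. The part of these cells in the fall of Alpl was not tested further.

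Sequences before the annotated starts are shown for Alpl, Ckmt2 and Gk. These members were called lower in the main effect of CR in SkM, and Alpl in BAT as well. Gk was not called in SkM between CR and control or between CREX and EX (edgeR adjusted p = 0.184 and 0.139). RefSeq (GRCm38.p6) had an entry for 8 of the 10 members. Each line is the 250 bases before the start on the minus strand, read 5′ to 3′, and capitals mark matches on either strand to the TATA box TATAAA, the binding motif CCAAT of nuclear factor Y, the palindromic E-box CACGTG, the E-box CAGCTG bound by muscle regulators, the element AAGGTCA of estrogen-related receptors, the GC box GGGCGG or the core ACANNNTGT of glucocorticoid receptor elements.
Alpl, first start, chr4:137796385-137796634: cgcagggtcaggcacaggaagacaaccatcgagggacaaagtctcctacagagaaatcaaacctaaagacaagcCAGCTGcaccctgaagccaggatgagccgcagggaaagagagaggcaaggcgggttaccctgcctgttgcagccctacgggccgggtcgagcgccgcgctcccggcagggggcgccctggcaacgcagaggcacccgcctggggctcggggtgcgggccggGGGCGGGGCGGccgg
Alpl, second start, chr4:137766476-137766725: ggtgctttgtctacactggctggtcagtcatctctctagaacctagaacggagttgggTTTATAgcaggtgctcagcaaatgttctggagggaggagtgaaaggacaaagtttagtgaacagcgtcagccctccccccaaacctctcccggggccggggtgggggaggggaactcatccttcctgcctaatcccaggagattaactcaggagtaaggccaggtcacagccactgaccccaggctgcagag
Ckmt2, chr13:91876886-91877135: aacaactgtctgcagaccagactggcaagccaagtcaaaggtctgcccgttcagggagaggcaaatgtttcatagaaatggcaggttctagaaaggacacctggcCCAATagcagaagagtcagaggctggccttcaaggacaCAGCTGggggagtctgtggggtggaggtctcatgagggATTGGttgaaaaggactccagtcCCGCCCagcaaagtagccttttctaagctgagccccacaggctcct
Gk, chrX:85776820-85777069: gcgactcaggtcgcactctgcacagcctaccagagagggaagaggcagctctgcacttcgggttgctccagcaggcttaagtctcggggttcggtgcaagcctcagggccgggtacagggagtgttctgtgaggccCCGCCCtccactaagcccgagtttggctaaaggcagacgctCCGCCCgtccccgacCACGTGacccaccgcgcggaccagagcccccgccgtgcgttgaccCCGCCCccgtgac
Over all 32851 RefSeq windows of this length, 32.7% held the GC box GGGCGG, 33.8% CCAAT, 13.0% the E-box CAGCTG, 12.4% TATAAA, 6.02% the E-box CACGTG, 5.84% ACANNNTGT and 4.08% AAGGTCA. The first Alpl start had CAGCTG and 2 overlapping GC boxes, and the second start had 1 match, TATAAA on the opposite strand. Ckmt2 had CCAAT on both strands, a GC box and the E-box CAGCTG, and Gk had CACGTG and 3 GC boxes. AAGGTCA and ACANNNTGT had no match in these 4 windows. GC content was 68.4% and 56.0% for the Alpl windows, 54.0% for Ckmt2 and 67.2% for Gk, against a median of 52.4% over all windows.

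Of the creatine genes in BAT, Gatm was called in the main effect of CR. It held 1.62, 1.45 and 1.78 CPM in control, 1.13, 1.37, 1.24 and 0.989 CPM in CR, 2.27, 2.29, 5.47 and 1.27 CPM in EX and 1.08, 1.38, 1.74 and 0.830 CPM in CREX. Control and CR libraries did not overlap, while EX and CREX libraries did. The main effect was -0.82 (standard error 0.26, edgeR adjusted p = 0.0258). It was lost without CR replicate 4 (adjusted p = 0.0505), without control replicate 3 (adjusted p = 0.0579) and without EX replicate 3, where the log2 fold change was -0.54 and under the fold minimum. In single comparisons it was -0.45 for CR (edgeR adjusted p = 0.141) and -1.18 for CREX against EX (edgeR adjusted p = 0.132), the second of which was called with the replicate block (-1.06, adjusted p = 0.0473). The 6 macrophage markers summed to 42.5 to 47.0 CPM in control, 24.6 to 40.5 CPM in CR, 47.2 to 75.5 CPM in EX and 25.7 to 52.4 CPM in CREX, and fibroblast markers to 177 to 263 CPM in EX and 135 to 151 CPM in CREX. Their part in the Gatm value was not tested.

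The main effect of CR in BAT called 2 of 9 tested members, Gatm and Alpl, and 11.8% of all genes. Ckb had an adjusted p of 0.0452 in it (edgeR) but fell by 0.33 on the log2 scale, under the fold minimum. Its libraries ran from 12.6 to 15.8 CPM in CR and from 14.99 to 17.3 CPM in control. Slc6a8 averaged 21.1 ± 3.84 CPM in control and 16.7 ± 1.35 CPM in CR (SD, edgeR adjusted p = 0.0641), and Gamt 2.34 ± 0.308 and 2.32 ± 0.204 CPM (edgeR adjusted p = 0.938).

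Ckmt2 in BAT varied widely between libraries of one group. The control libraries held 5.69, 0.685 and 0 CPM, the CR libraries 0.0434, 0.284, 12.4 and 5.08 CPM, the EX libraries 10.3, 47.0, 36.7 and 0.0438 CPM and the CREX libraries 7.43, 21.9, 99.5 and 26.0 CPM. Low and high libraries stood side by side in control, CR and EX. No comparison within BAT called it (main effect 0.90, standard error 1.10, edgeR adjusted p = 0.565). Its level followed the muscle fibre markers. The muscle fibre score fell into 5 libraries at or below 2.11 and 10 libraries from 5.28 upward. A correlation over all 15 mixes the difference between these sets with the relation within them. Relations were therefore followed within the 10 upper libraries, a choice made after seeing the data. Within the 10 upper libraries Ckmt2 had Pearson r = 0.969 (permutation p = 1.0e-05, the smallest that 100000 permutations give, 9.0e-05 after adjustment over 9 members) and Spearman rho = 0.976 (permutation p = 5.0e-05). Without the 2 libraries farthest from the median score r was 0.931. In the 5 lower libraries Ckmt2 had 0 to 17 counts.

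Sln counts in BAT ran from 0 to 413. Control libraries had 2, 3 and 0 counts, CR libraries 0, 2, 34 and 11, EX libraries 10, 1, 413 and 0, and CREX libraries 17, 34, 200 and 17. The largest values, 16.7 CPM in EX replicate 3 and 8.26 CPM in CREX replicate 3, belonged to libraries whose muscle markers summed to 3499 and 5389 CPM. EX replicate 2 had 3293 CPM of muscle markers and 0.0458 CPM of Sln. Within the 10 upper libraries r was 0.649 (permutation p = 0.0405, adjusted 0.182) and rho was 0.406 (permutation p = 0.249). Over all 15 libraries, as first planned, Sln had r = 0.631 (adjusted permutation p = 0.0357) and rho = 0.742 (adjusted permutation p = 0.0108). The main effect of CR was 1.05 with a standard error of 1.68 (edgeR adjusted p = 0.671). Without EX replicate 3 Sln was called at 3.39 (adjusted p = 0.0487). The part of muscle fibres in the BAT values of Ckmt2 and Sln was not tested further.

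Gk and Gpd2, which act on glycerol and glycerol 3-phosphate, were not called in BAT. Gk averaged 104 ± 14.0 CPM in control, 85.2 ± 17.6 CPM in CR, 115 ± 43.2 CPM in EX and 67.1 ± 17.7 CPM in CREX (SD). Its main effect of CR was -0.53 (standard error 0.19, edgeR adjusted p = 0.0516), and the EX and CREX libraries overlapped. It was called without CREX replicate 4, EX replicate 1 or EX replicate 4 (adjusted p = 0.0414, 0.0286 and 0.0350), and with the muscle fibre score as a covariate (-0.59, adjusted p = 0.0348). Gpd2 stayed between 588 and 883 CPM in all BAT libraries, with a main effect of 0.03 (interval of 2 standard errors from -0.13 to 0.20).

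**Figure D2:**
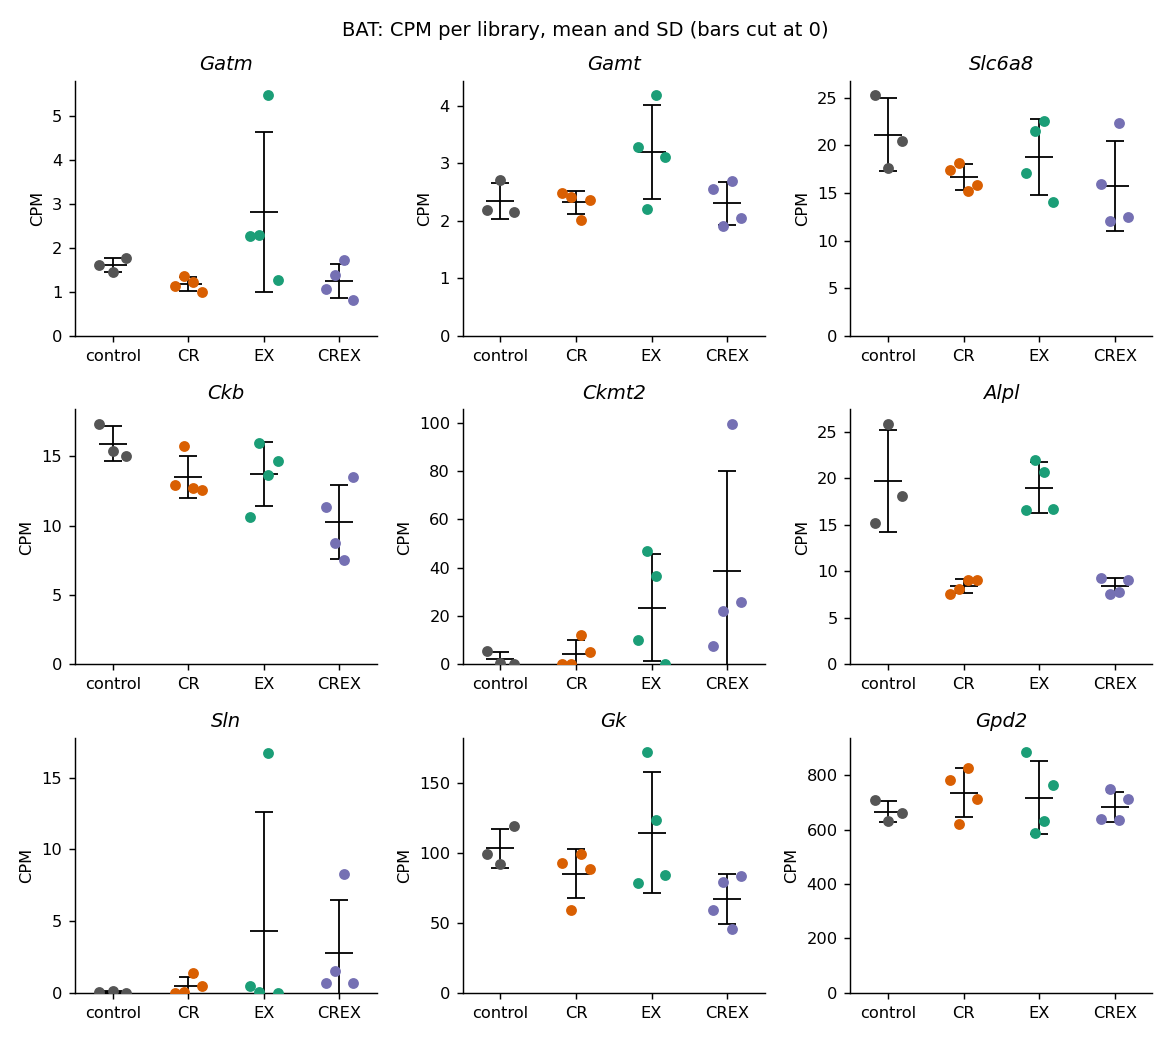
CPM of 9 members in each BAT library by group (each point 1 library, horizontal line the mean, bars the SD, 3 control, 4 CR, 4 EX and 4 CREX). Alpl of restricted mice lies below that of mice fed ad libitum without overlap, and Ckmt2 and Sln spread widely within groups.

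Other genes of these pathways were followed in BAT in the main effect of CR, where 11.8% of all genes were called. Of 10 creatine phosphotransfer genes, such as the adenylate kinases and mitochondrial carriers, none was called (median log2 fold change 0.12, all genes 0.00). Of 11 tested genes that make, carry or use creatine precursors (precursor genes) 2 rose and 1 fell. Gnmt, which methylates glycine, rose by 1.25 (standard error 0.24, edgeR adjusted p = 0.00126), Ahcy, which splits S-adenosylhomocysteine, rose by 0.72, and Slc7a1, an importer of cationic amino acids, fell by 0.84. The adjusted p of Ahcy was 0.00320 and that of Slc7a1 0.00594.

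Among 27 calcium cycling genes Asph rose by 1.04 (standard error 0.07, edgeR adjusted p = 3.1e-07), Itpr2, a calcium release channel of the endoplasmic reticulum, fell by 0.77 (adjusted p = 1.4e-05), and Ryr2, a ryanodine receptor, fell by 1.19 (adjusted p = 0.0488). Ryr2 was lost in 9 of 15 runs that left out a library. Of 5 tested genes of phosphate handling, Slc20a1, a phosphate importer, fell by 0.92 (edgeR adjusted p = 9.1e-05) and Enpp1, which makes pyrophosphate, fell by 1.51 (edgeR adjusted p = 0.0403, lost in 11 of 15 runs). Of 16 glycerol and lipid genes Lpin1 rose by 0.68, and Gpat3 and Pck1 fell by 1.09 and 0.75. The Pck1 call was lost in 3 of 15 runs (adjusted p up to 0.0618), with no filter on low counts and with the replicate block. Of 13 genes of uncoupling and brown fat regulation 5 fell and 1 rose. The gene that rose belongs to the 6 brown adipocyte markers, and the 3 genes named here are those with the smallest p. Ucp1, the uncoupling protein, averaged 4268 ± 458 CPM in control and 2103 ± 334 CPM in CR (SD) and fell by 1.01 (edgeR adjusted p = 8.3e-05). Prdm16, a regulator of brown fat identity, fell by 1.16 (edgeR adjusted p = 1.3e-05) and Adrb3, the beta-3 adrenergic receptor, by 0.78 (edgeR adjusted p = 7.1e-04).

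In SkM 3 of 9 tested members were called between CR and control, where 9.58% of all genes were called. Sln rose, and Alpl and Ckmt2 fell. Sln, on chromosome 9 from 53850164 to 53854560, held 2.48, 1.35, 1.27 and 1.498 CPM in control and 8.91, 5.46 and 5.65 CPM in CR, and 2.13, 1.04, 1.13 and 1.35 CPM in EX and 3.91, 4.93 and 19.3 CPM in CREX. Every library of restricted mice was above every other library. CR alone gave a log2 fold change of 2.02 ± 0.27 (standard error), a 4.05-fold rise (edgeR adjusted p = 0.00131), and CREX against EX gave 2.73 ± 0.63 (edgeR adjusted p = 0.0349). The main effect of CR was 2.38 (standard error 0.37, edgeR adjusted p = 4.5e-04) and stayed called with each library left out (1.82 to 2.57).

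Ckmt2, on chromosome 13 from 91853387 to 91876885, held 1731, 1699.9, 1439 and 1488 CPM in control and 657, 843 and 889 CPM in CR. The EX libraries held 2012, 2076, 1523 and 1792 CPM and the CREX libraries 1311, 323 and 403 CPM. No restricted library reached the lowest unrestricted one, and CREX replicate 1 stood apart from the other CREX libraries. The log2 fold change for CR was -0.99 (standard error 0.14, edgeR adjusted p = 0.00196) and the main effect -1.23 (standard error 0.25, edgeR adjusted p = 0.00261). CREX against EX gave -1.45 (standard error 0.50, edgeR adjusted p = 0.0956), and without CREX replicate 1 it gave -2.35 (adjusted p = 5.1e-06). It was called in 1 fit on all 4 groups as well (-1.45, adjusted p = 0.0146). In the CR libraries the slow fibre score lay within the control range. In CREX replicates 1, 2 and 3 the score was 6.17, 3.34 and 1.98, so the run without replicate 1 kept the lower-scoring CREX libraries. Over all alternatives the Ckmt2 value for CREX against EX ran from -2.35 to -0.97 (edgeR adjusted p up to 0.398). The part of slow fibres in it was not tested further. In 1 fit on all 4 SkM groups the CR calls of Ckmt2 and Alpl were lost (adjusted p = 0.0814 and 0.0539).

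Alpl in SkM held 22.4, 20.6, 20.2 and 19.5 CPM in control, 9.35, 13.0 and 12.4 CPM in CR, 24.9, 26.2, 29.3 and 27.2 CPM in EX and 14.0, 4.07 and 11.2 CPM in CREX. Restricted and unrestricted libraries did not overlap. With CR alone it changed by -0.83 on the log2 scale (standard error 0.13, edgeR adjusted p = 0.00240), by -1.46 for CREX against EX (standard error 0.36, edgeR adjusted p = 0.0406) and by -1.15 for the main effect (standard error 0.19, edgeR adjusted p = 5.6e-04). Endothelial markers summed to 161 to 203 CPM in CR and 262 to 319 CPM in control, and to 120 to 234 CPM in CREX and 254 to 321 CPM in EX. With the endothelial score as a covariate, chosen after seeing the data, Alpl was no longer called by edgeR. It gave -0.27 for CR (adjusted p = 0.895), -0.87 for CREX (adjusted p = 0.601) and -0.64 for the main effect (adjusted p = 0.284). The score itself was 4.57 to 4.82 in CR and 5.25 to 5.49 in control, and 4.11 to 5.07 in CREX and 5.19 to 5.54 in EX. Because it separated restricted from unrestricted libraries, this fit cannot tell the score from CR. The part of endothelial cells in the fall of Alpl was not tested further.

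CREX against EX called 2 of 9 members in SkM, Alpl and Sln, beside 8.88% of all genes. Both calls were lost when any 1 EX library was left out (adjusted p between 0.0720 and 0.0915 for Sln, 0.0847 and 0.0904 for Alpl), Sln also without CREX replicate 2 (adjusted p = 0.0551) and Alpl without CREX replicate 3 (adjusted p = 0.112). With the slow fibre score as a covariate both were lost as well (Sln 1.23, adjusted p = 0.255, Alpl -1.18, adjusted p = 0.344). Without CREX replicate 1, 5 members were called, among them Ckb at -1.11 (adjusted p = 0.00546) and Gk at -1.18 (adjusted p = 0.0474). The number of all genes called also moved, from 350 to 2566 over the runs that left out 1 library, against 1162 with every library. The run without CREX replicate 1 kept CREX replicates 2 and 3, with slow fibre scores of 3.34 and 1.98.

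The main effect of CR in SkM called 4 of 9 members and 14.1% of all genes, adding Gk to those above. Gk held 1.66, 2.24, 1.67 and 1.83 CPM in control, 0.746, 1.30 and 1.64 CPM in CR, 1.54, 1.40, 1.18 and 0.652 CPM in EX and 0.916, 0.575 and 0.476 CPM in CREX. Its CREX libraries overlapped the EX libraries. The main effect was -0.72 ± 0.23 (standard error) with an edgeR adjusted p of 0.0238, and the call was lost without CR replicate 1, CREX replicate 2, CREX replicate 3 or EX replicate 1 (adjusted p from 0.0522 to 0.0588). The 5 adipocyte markers summed to 154 to 234 CPM in CR, 169 to 242 CPM in control, 98.0 to 255 CPM in CREX and 157 to 241 CPM in EX. With the adipocyte score as a covariate, chosen after seeing the data, Gk was called at -0.85 (adjusted p = 0.0170), and with the slow fibre score it was not (-0.62, adjusted p = 0.101).

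Slc6a8 had a small fall in SkM, from 114 ± 7.54 CPM in control to 86.3 ± 6.12 CPM in CR (SD, log2 fold change -0.39, edgeR adjusted p = 0.0332, under the fold minimum). Its main effect was -0.28 (standard error 0.07, edgeR adjusted p = 0.00580). Gatm, Gamt, Ckb and Gpd2 were not called in SkM. Gamt averaged 5.92 ± 0.990 CPM in control and 8.45 ± 1.78 CPM in CR (SD, edgeR adjusted p = 0.0848). The 6 hepatocyte markers summed to 39.8 to 226 CPM in CR libraries and 0.322 to 6.33 CPM in control, and their part in Gamt was not tested. Gpd2 averaged 107 ± 13.5 CPM in control, 128 ± 10.1 CPM in CR, 128 ± 14.8 CPM in EX and 156 ± 41.6 CPM in CREX (SD), with a main effect of 0.28 (edgeR adjusted p = 0.0817).

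**Figure D3:**
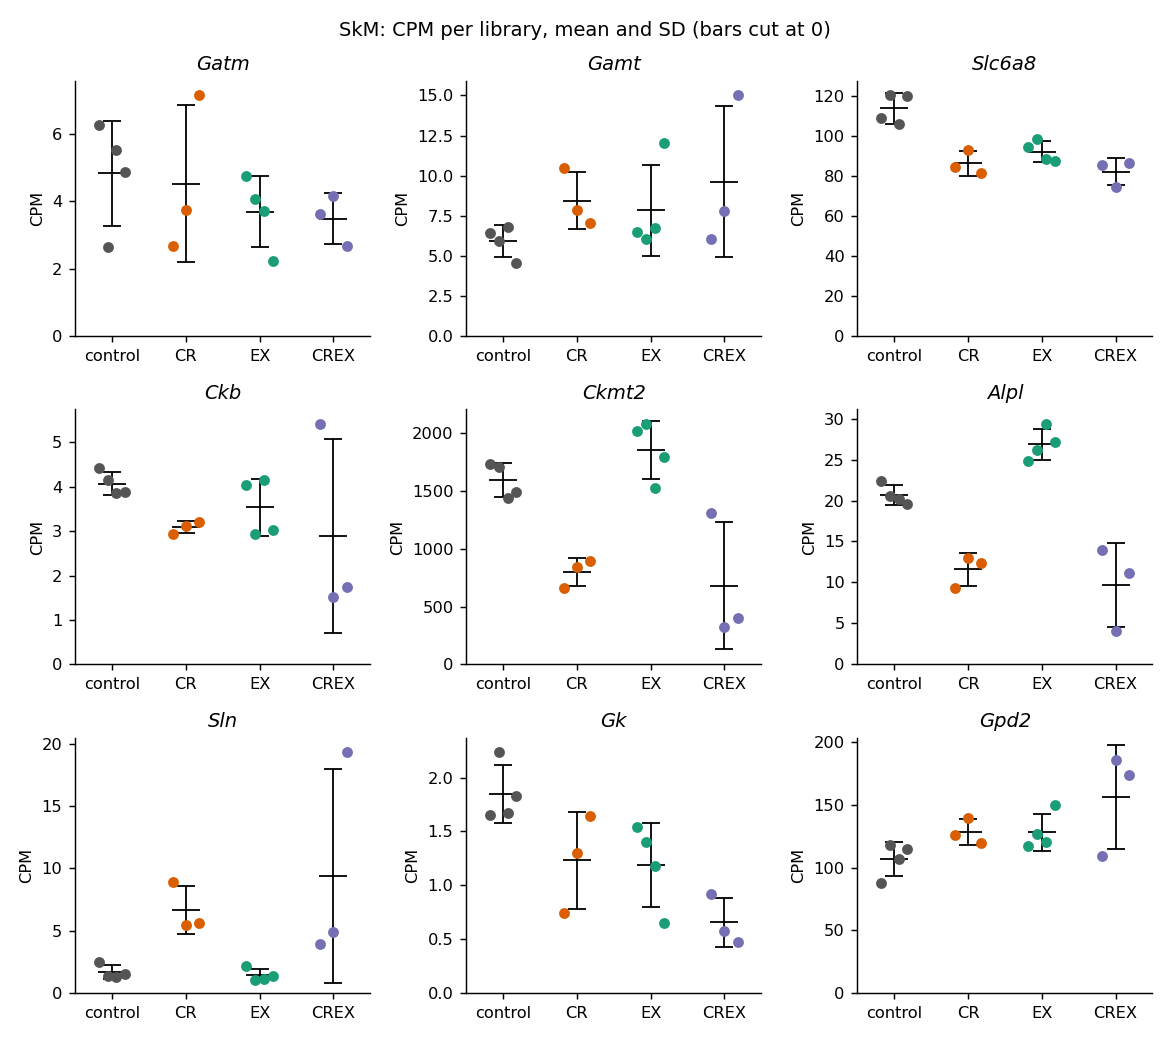
CPM of 9 members in each SkM library by group (each point 1 library, horizontal line the mean, bars the SD, 4 control, 3 CR, 4 EX and 3 CREX). Sln lies higher and Ckmt2 and Alpl lie lower in restricted mice, and CREX replicate 1 has the highest Ckmt2 of its group at 1311 CPM.

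Among the other pathway genes in SkM, the main effect of CR called 5 of 11 tested precursor genes, all higher, where 14.1% of all genes were called in either direction. Shmt1, which makes glycine from serine, rose by 0.70 (standard error 0.10, edgeR adjusted p = 1.2e-04), Gnmt by 1.41 (edgeR adjusted p = 2.3e-04) and Ahcy by 0.79 (edgeR adjusted p = 0.00129, under the fold minimum at 0.58 with the slow fibre score as a covariate). Gnmt averaged 5.91 ± 1.59 CPM in CR and 0.979 ± 0.192 CPM in control (SD) and is abundant in liver. All 6 hepatocyte markers rose in this comparison, and their part in the precursor genes was not tested. Of 10 creatine phosphotransfer genes Ak4, a mitochondrial adenylate kinase, fell by 0.94 (edgeR adjusted p = 0.0164) and was lost with the replicate block (-0.94, adjusted p = 0.0535) and with the slow fibre score as a covariate (-0.63, adjusted p = 0.0874).

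Of 28 calcium cycling genes Cacnb1, a subunit of the muscle calcium channel, rose by 0.60 (edgeR adjusted p = 7.2e-05, under the fold minimum at 0.57 without CR replicate 1, 0.54 without CREX replicate 3 and 0.54 with the slow fibre score as a covariate), and Atp2a2, the calcium pump of slow fibres, fell by 1.41 (edgeR adjusted p = 0.0323). Atp2a2 averaged 334 ± 128 CPM in control, 266 ± 54.0 CPM in CR, 211 ± 116 CPM in EX and 38.0 ± 34.1 CPM in CREX (SD). Its call was lost in 10 of 14 runs that left out a library. With the slow fibre score as a covariate it was no longer called (log2 fold change -0.59). Of 16 glycerol and lipid genes Pck1, which feeds glyceroneogenesis, rose by 2.77 (edgeR adjusted p = 0.0455, lost in 12 of 14 runs) and Gpam, a glycerol-3-phosphate acyltransferase, fell by 0.86 (edgeR adjusted p = 1.2e-04). Of the 10 tested uncoupling genes Ucp3, a mitochondrial carrier of muscle, rose by 1.01 (edgeR adjusted p = 4.6e-05), and Cox7a1, a cytochrome c oxidase subunit, and Dio2, the type 2 deiodinase, fell by 0.95 and 1.91 (edgeR adjusted p = 3.0e-04 and 0.00180).

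**Figure D4:**
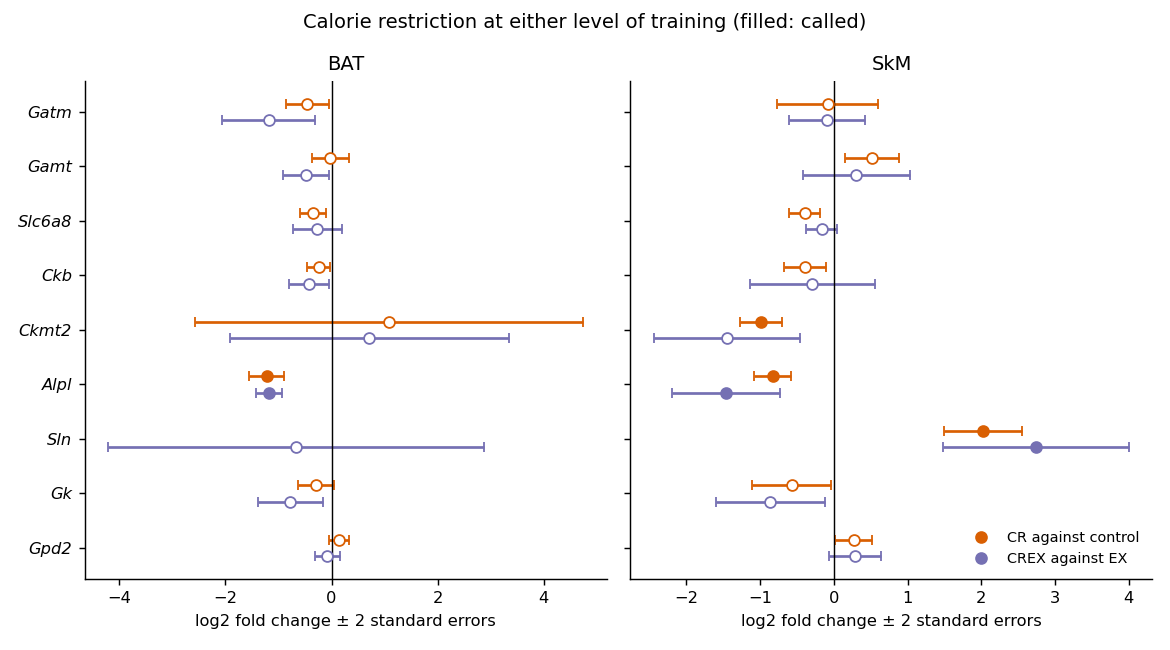
Log2 fold change of each tested member with CR, alone (CR against control) or in trained mice (CREX against EX), bars 2 standard errors, filled points called. Alpl lies below 0 in all 4 comparisons, at -1.23 and -1.18 in BAT and at -0.83 and -1.46 in SkM, and Sln in SkM lies above 2.

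Treadmill training alone called no member. In BAT, EX against control called 0 of 8 tested members and 0 of 13410 genes (DESeq2 0 members and 39 genes, and 0 members at an unadjusted edgeR p under 0.05, which 7.22% of genes had), and CREX against CR called 0 of 9 beside 0.00764% of genes, with 1 member, Ckb, at an unadjusted p under 0.05, as 7.62% of genes had, and 0 members by DESeq2. In SkM, EX against control called 0 of 9 beside 0.0776% of genes, and 0 by DESeq2, with 4 members at an unadjusted edgeR p under 0.05, as 6.84% of genes had, namely Alpl (log2 fold change 0.37, adjusted p = 0.152), Slc6a8 (-0.31), Gk (-0.63) and Gpd2 (0.26). In that comparison DESeq2 gave adjusted p = 0.0172 for Alpl and 0.0237 for Slc6a8, both under the fold minimum. For Alpl the lowest EX library, at 24.9 CPM, was above the highest control library, at 22.4 CPM. The highest EX library lay below the lowest control library for Slc6a8 (98.4 and 106 CPM) and for Gk (1.54 and 1.66 CPM). How many of all genes lacked overlap in this comparison was not counted, so these separations are descriptive only. SkM CREX against CR called 0 members and 0 genes (edgeR), 0 members at an unadjusted p under 0.05, which 3.64% of genes had, and 0 by DESeq2. These comparisons share their control or CR libraries with those above.

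Whether CR acted differently in trained mice was tested as an interaction. No member was called in BAT or in SkM (edgeR, 0 genes called in either tissue, 0 members by DESeq2, and 0 members at an unadjusted p under 0.05, which 5.76% of genes had in BAT and 4.92% in SkM). For Alpl the difference of the CR effects was 0.04 in BAT (interval of 2 standard errors from -0.39 to 0.47) and -0.62 in SkM (from -1.37 to 0.12). Without SkM CREX replicate 1, Ckmt2 was called at -1.32 (adjusted p = 0.00596). Whether the main effect of CR differed between the tissues was tested in 1 fit over all 29 libraries, and 0 of 9 members were called (1, Gamt, at an unadjusted p under 0.05, as 33.0% of genes had, 0 by DESeq2) beside 20.5% of all genes. The difference for Alpl was -0.05 (interval of 2 standard errors from -0.50 to 0.40). Gamt was called in it without SkM CREX replicate 1 or SkM EX replicate 4, at -0.77 and -0.79 (adjusted p = 0.0262 and 0.0209).

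In SkM the slow fibre score correlated with Ckb, Gk and Gpd2 (r = 0.646, 0.652 and -0.658, permutation p = 0.0157, 0.00911 and 0.0127, adjusted 0.0471 for each over 9 members, rho = 0.327, 0.556 and -0.222 with permutation p = 0.252, 0.0424 and 0.444). The 2 libraries farthest from the median score were CREX replicates 2 and 3, and without them r was -0.29, 0.22 and 0.04. These relations rest on those libraries.

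**Figure D5:**
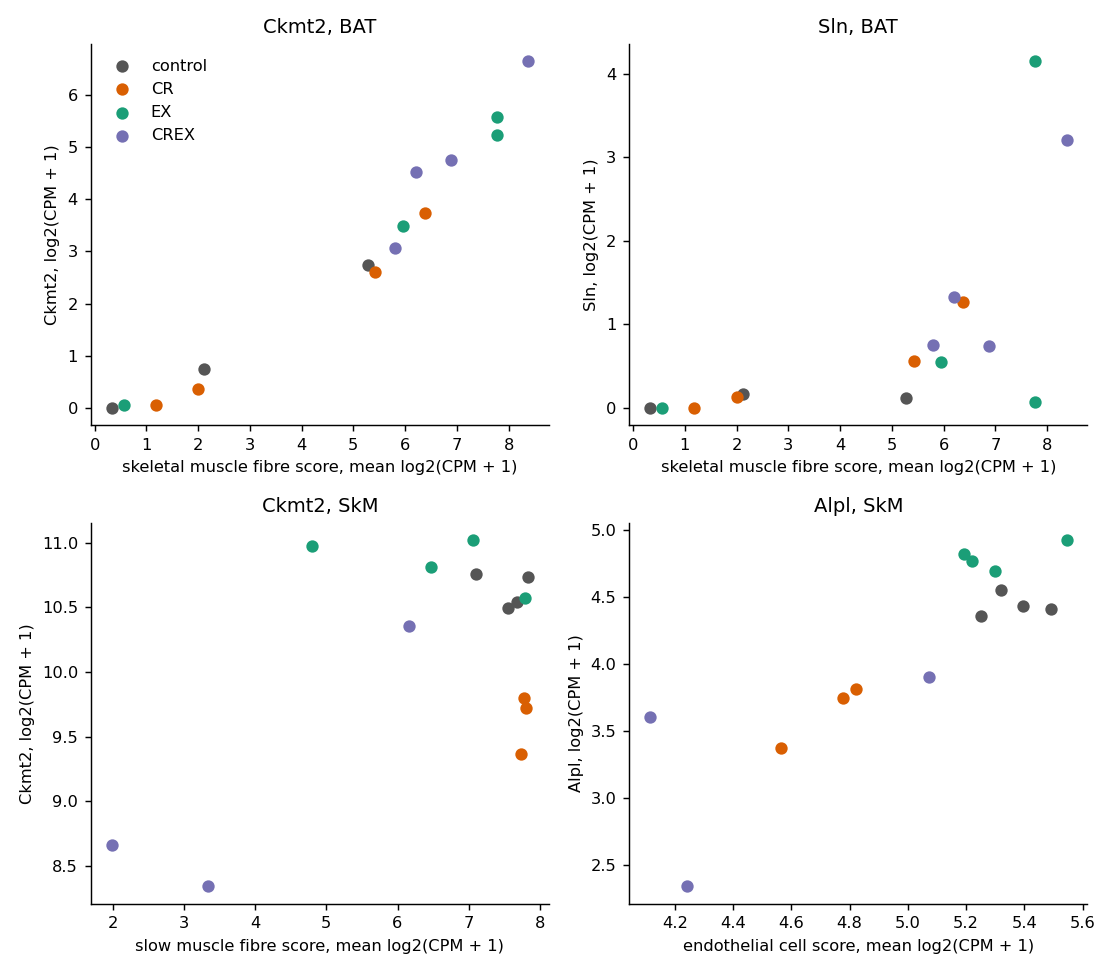
Member level against marker scores, each point 1 library and both axes on the log2(CPM + 1) scale: Ckmt2 and Sln in BAT against the muscle fibre score, Ckmt2 in SkM against the slow fibre score, and Alpl in SkM against the endothelial score. Ckmt2 in BAT rises with the muscle score, and in SkM the CR libraries have low Ckmt2 at slow fibre scores of 7.74 to 7.80.

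The genes whose log2 CPM was most like that of Alpl over the 15 BAT libraries were Fut4, Gab2 and BC034090 (Pearson r = 0.964, 0.963 and 0.954 among 13869 genes), and those most like Gatm were Sytl2, Ctsk and Col1a2 (r = 0.917, 0.908 and 0.904). Over the 14 SkM libraries the nearest to Ckmt2 were Phyh, Mdh1 and Acadvl (r = 0.992, 0.987 and 0.986), to Alpl Serpine2, Palmd and Akr1b10 (0.963, 0.956 and 0.948), to Sln Ube2j1, Ifi205 and Capn2 (0.965, 0.957 and 0.956), and to Gk Slbp, Chrnd and Clpx (0.922, 0.918 and 0.915). Among the members themselves Ckmt2 and Alpl had r = 0.920 over SkM libraries and -0.11 over BAT libraries. These values are descriptive and share the groups and the libraries.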

How the data were processed

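RNA-seq of BAT and SkM was used, 29 libraries in all. Per the labels and the methods, the authors aligned reads to mm10 with STAR 2.7.10a and estimated expected counts per gene with RSEM 1.2.28, and the labels list DESeq2 1.3.40; the RSEM and DESeq2 versions given in the study's methods differ. The deposited table holds these expected counts without normalization, 6.11% of them not whole, and they were rounded. The annotation behind the counts and the strand setting are not given in the sources used here. 27 rows whose symbols had become dates (0.0771% of counts) were left out. Gene positions and exon lengths are from GENCODE (GRCm38).

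Each comparison was fitted on its own groups with edgeR 4.0.16 (R 4.3.3), TMM, filterByExpr and the robust quasi-likelihood test, and main effects and interactions on all groups. A call is an adjusted p under 0.05 (Benjamini-Hochberg over all genes tested) and a fold change above 1.5, with no fold minimum for interactions and for the difference between tissues. The standard error is the size of the log2 fold change divided by the square root of F. CPM were scaled with TMM factors within each tissue, and scores are means of log2(CPM + 1). Alternatives were DESeq2 1.42.0, other size factors, filters, the block, covariates and each library left out. Code was tested on simulated data. Figures used Python 3.11.15 and matplotlib 3.10.9. P-values measure only the spread between these libraries.

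Named genes are the members, up to 3 called genes with the smallest p per pathway list and tissue, the most abundant muscle markers (not all printed) and 3 genes most like each called member. The members and lists were chosen with earlier results of these data known.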

Additional observations from a re-analysis of the deposited data

Results flagged for a closer look

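Of 45 groups of 4 libraries checked over 9 members, 4 held a library far from the other 3, where chance gives about 1 in 20. Sln in BAT EX replicate 3 was at 16.7 CPM, with the other EX libraries between 0 and 0.462 CPM, and in BAT CREX replicate 3 at 8.26 CPM, with the others between 0.672 and 1.51 CPM. Ckb in BAT CR replicate 2 was at 15.8 CPM, with the others between 12.6 and 12.9 CPM. Gamt in SkM EX replicate 4 was at 12.1 CPM, with the others between 6.06 and 6.74 CPM.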

How the results depend on the processing

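No called value changed direction under the alternatives. In BAT, the number of members called between CREX and EX was 2, with Gatm added to Alpl, in 1 fit on all 4 groups, with the replicate block and with the muscle fibre score as a covariate, and the main effect of CR called 1 to 3 members with 1 library left out. In SkM, CR against control called 1 member, Sln, in 1 fit on all 4 groups, where Ckmt2 had an adjusted p of 0.0814 and Alpl of 0.0539 (edgeR). CREX against EX in SkM called 0 members with no filter on low counts, with the slow fibre score as a covariate and with the replicate block (Alpl adjusted p = 0.0921, Sln 0.119), and 0 to 5 with 1 library left out. The SkM interaction and the difference of the CR effects between tissues called 0 to 1 with 1 library left out. In the runs with 1 library left out, all genes called numbered 1479 to 1713 for the BAT main effect of CR. For SkM CREX against EX they numbered 350 to 2566. They numbered 0 to 182 for the SkM interaction and 2633 to 3615 for the difference between tissues. Relations to the muscle fibre score in BAT passed for Ckmt2 and Sln over all 15 libraries. They passed for 1 member, Ckmt2, on deviations from the group mean and among the 10 upper libraries. Relations to the slow fibre score in SkM passed for 3 members, for 0 by Spearman's rho or with the median of the markers, and for 1, Sln, on deviations from the group mean. The cause of these differences was not tested. Same-numbered libraries deviated with mean correlations of -0.30 to 0.15 and in no comparison was every pair over 0.1, so the numbers were not taken as pairs. DESeq2 gave no adjusted p for Ckmt2 between BAT and SkM and called 7 members there. Depth limits Ckmt1 in both tissues and Sln in BAT.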
